A study of Homo sapiens with 6 samples.

Results

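Cleavage and polyadenylation factors are the proteins that cut a nascent transcript and add its poly(A) tail. Their messenger RNAs were followed in SW480, a human cell line from a colon adenocarcinoma. The 10 genes chosen by name were CPSF1, CPSF2, CPSF3, CPSF4, CPSF6, NUDT21, CSTF1, CSTF2, CSTF3 and PCF11. They are 10 of the 28307 gene symbols in the deposited gene tables, and all 10 were among the 13300 genes tested, which had a mean level of at least 1 TPM (a transcript abundance corrected for length and scaled to the library). Poly(A)-selected RNA was sequenced from 3 lines carrying lentiviral Clover, a fluorescent protein used as the control, and from 3 lines carrying lentiviral Z18trunc, a truncated ZC3H18, a nuclear RNA surveillance protein. Both constructs were driven from the CMV promoter of the same pLENTI vector, and both groups went through the same transduction and antibiotic selection. Per the methods, the lines were made in biological triplicate and selected with puromycin. The design therefore compares added truncated protein, on top of the cells' own ZC3H18, with an added fluorescent protein.

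Most messenger RNAs gain their poly(A) tail in a reaction that couples cutting to tail addition. CPSF reads the AAUAAA signal and holds the nuclease that cuts, CFIm reads UGUA elements upstream, CstF reads U-rich and GU-rich sequence downstream, and CFIIm links the reaction to the carboxy-terminal tail of RNA polymerase II and to termination. ZC3H18 connects the capped end of nuclear transcripts with the decay adaptors NEXT and PAXT, the latter of which acts on polyadenylated RNA.

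To show the sequence element these factors act on, the last 30 bases of 4 of their own annotated transcripts are printed, with the signal hexamer in capitals. The stretches come from hg38 and the canonical GENCODE 44 transcripts, lie in the 3′ UTR and are written 5′ to 3′ on the strand of the gene. They were chosen as the gene with the largest log2 difference (PCF11), a CstF member (CSTF3), a CFIm member (NUDT21) and the 1 member with the variant hexamer (CPSF4). The positions are chr11:83185765-83185794 on the plus strand for PCF11, chr11:33084584-33084613 on the minus strand for CSTF3, chr16:56429133-56429162 on the minus strand for NUDT21 and chr7:99457344-99457373 on the plus strand for CPSF4.
PCF11: atacatgtAATAAAtagaatgatgaagaaa
CSTF3: tcctttaaaaAATAAAaggattcagaaaca
NUDT21: tcatttcAATAAAaaatatttgaaagagaa
CPSF4: ttatgaaatggATTAAAgcttgttttttaa
AATAAA was found in this window, on the transcript strand, in 8 of the 10 members, ATTAAA in CPSF4 and neither in CPSF1. Among 11753 protein-coding genes tested, 59.2% of the windows held AATAAA, 14.2% held ATTAAA without it and 26.5% held neither. For PCF11 the deposited gene ends at 83187451, downstream of this canonical end, so the span in the tables reaches further.

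As a check of the labels, the level of ZC3H18 was 58.4, 51.3 and 61.8 TPM in the Clover libraries and 752, 739 and 798 TPM in the Z18trunc libraries. The groups were far apart, with a log2 difference of 3.72 (limma adjusted p = 3.2e-05). Aligned fragments ranged from 18226033 to 22463310 per library. Of 10 epithelial colon markers 9 reached 1 TPM, with sums of 23254 to 25255 TPM, and LGR5 was listed at 0 in every library. Of 6 fibroblast and 6 leukocyte markers 1 each reached 1 TPM, with sums of at most 4.63 TPM, and none of 4 endothelial markers did. Of 6 melanocytic markers 2, MITF and PMEL, reached 1 TPM, with sums of at most 5.09 TPM. Clover replicate 2 and Z18trunc replicate 3 stood apart from their groups in how AT-rich and GC-rich genes were represented, and this is given with the members' values.

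Of the 10 factor genes, 7 were higher in all 3 Z18trunc libraries than in any Clover library, among them the nuclease CPSF3, both CFIm genes, CSTF3 and PCF11. CPSF1 was the 1 gene lower in all 3, and CPSF4 and CSTF2 overlapped. Of all genes tested, 30.1% were higher without overlap and 6.73% lower. None of the 10 passed at an adjusted p under 0.05 (limma on log2(TPM + 1), adjusted over all genes tested), where 0.015% of all genes were called. At an unadjusted p under 0.05, 6 members were higher and 0 lower, against 25.6% and 2.9% of all genes. Among genes as AT-rich as these 6 members, 51.2% to 54.2% were higher, as given below with the GC content. The members' median log2 difference was 0.25, beside 0.11 for all genes. The differences reached 0.45 on the log2 scale at most, for PCF11. In these bulk libraries, more RNA per cell and more cells with the RNA cannot be told apart.

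**Figure D1:**
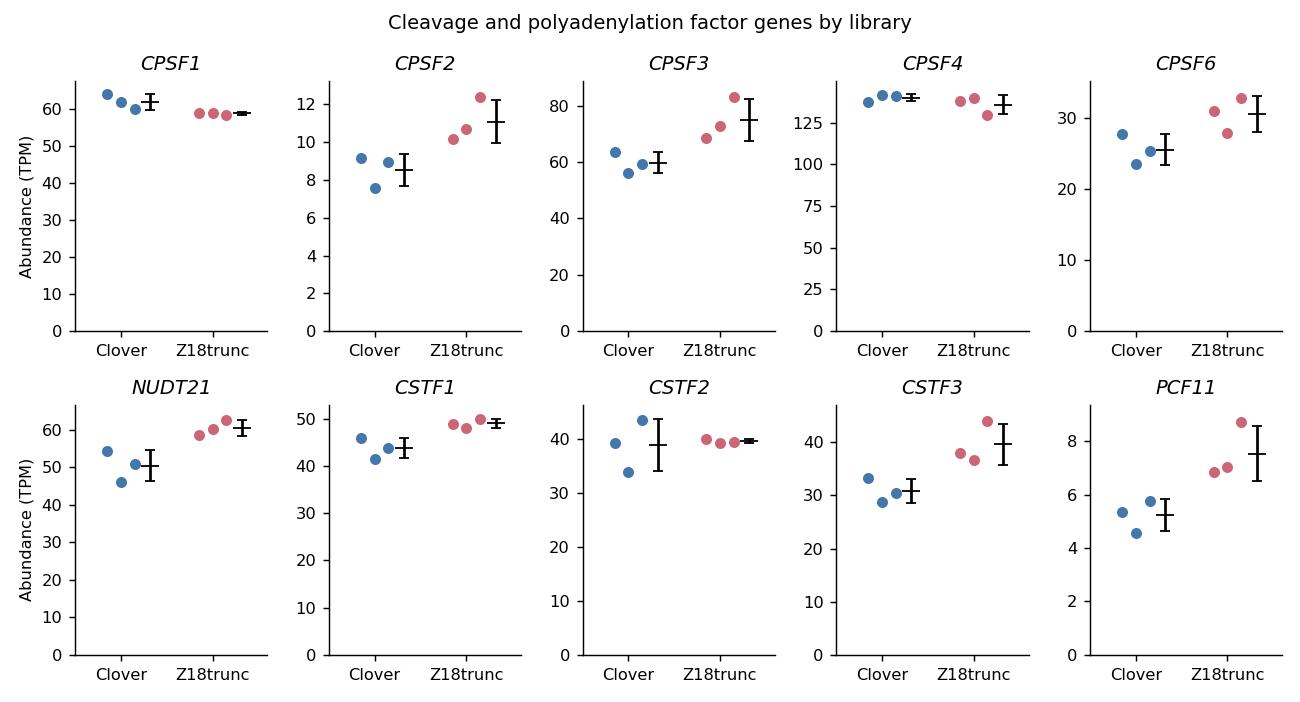
Level of each cleavage and polyadenylation factor gene in TPM (vertical axes from 0, a separate scale per gene) in the 3 Clover libraries (blue, left) and the 3 Z18trunc libraries (red, right), with replicates 1 to 3 from left to right and black bars for the mean and SD. CPSF2, CPSF3, CPSF6, NUDT21, CSTF1, CSTF3 and PCF11 were higher in all 3 Z18trunc libraries, CPSF1 lower, and CPSF4 and CSTF2 overlapped.

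In the Clover lines the members spanned a wide range of length-corrected levels. By TPM, CPSF4 was the most abundant at 140.0 ± 2.11 TPM (SD, n = 3), above 90.9% of the genes tested. It was followed by CPSF1, CPSF3, NUDT21, CSTF1, CSTF2, CSTF3, CPSF6 and CPSF2. PCF11 was the least abundant at 5.23 ± 0.595 TPM (SD, n = 3), above 27.7% of the genes tested. Only the neighbours CPSF1 and CPSF3, and CSTF1 and CSTF2, overlapped in their 3 Clover values, so their order was not resolved. By TPM, the subunits of a complex were thus not at equal RNA levels. CPSF2 was at 8.54 ± 0.844 TPM beside 59.7 ± 3.77 TPM for its partner CPSF3 (SD, n = 3 each). Read depth, in reads per base across all libraries, ordered the members differently. CPSF1 at 119.7 to 164.8 and NUDT21 at 107.9 to 149.5 lay above CPSF4 at 70.5 to 87.9. In read depth CPSF2 also lay below CPSF3, but by a smaller factor. Summed over the 10 members, the level was 446 to 480 TPM in the Clover libraries and 499 to 521 TPM in the Z18trunc libraries.

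CPSF1 (chromosome 8, 144393231 to 144409335, minus strand, hg38 throughout) encodes the largest CPSF subunit, the scaffold of the signal-reading module. It was at 64.1, 61.9 and 60.0 TPM in Clover and 59.1, 59.1 and 58.4 TPM in Z18trunc. All 3 Z18trunc values lay below the Clover values, by a narrow margin. The log2 difference was -0.07 (95% interval -0.23 to 0.08, limma adjusted p = 0.501).

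CPSF4 (chromosome 7, 99438940 to 99457377, plus strand) encodes the zinc finger subunit that contacts the signal hexamer. Its levels were 138, 142 and 141 TPM in Clover and 138, 140 and 130 TPM in Z18trunc. The groups overlapped, with Z18trunc replicate 3 lowest, and the log2 difference was -0.04 (95% interval -0.21 to 0.12, limma adjusted p = 0.703). Across all 18438 bp CPSF4 is spanned on the opposite strand by the readthrough gene ATP5MF-PTCD1, listed at 5.83, 5.45 and 4.57 TPM in Clover and at 0, 1.37 and 0 TPM in Z18trunc. Whether the gene tables were counted by strand is not given in the sources used here, so fragments of this pair could be divided between the genes.

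CPSF3 (chromosome 2, 9423537 to 9473110, plus strand) encodes the endonuclease that makes the cut. The 3 Clover libraries held 63.6, 56.1 and 59.4 TPM and the 3 Z18trunc libraries 68.5, 72.9 and 83.1 TPM. No Z18trunc library was as low as any Clover library, and replicate 3 was the highest. The log2 difference was 0.32 (95% interval 0.09 to 0.55, limma adjusted p = 0.0991).

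CPSF2 (chromosome 14, 92121969 to 92172145, plus strand) encodes the nuclease-like partner of CPSF3, which lacks cutting activity. Its 9.13, 7.58 and 8.92 TPM in Clover compared with 10.2, 10.7 and 12.4 TPM in Z18trunc. The groups were separate, with Clover replicate 2 lowest and Z18trunc replicate 3 highest. The log2 difference was 0.34 (95% interval 0.09 to 0.59, limma adjusted p = 0.09995).

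The CFIm genes were close to each other in their differences. NUDT21 (chromosome 16, 56429133 to 56451332, minus strand), which encodes the subunit that binds UGUA, was at 54.3, 46.1 and 50.8 TPM in Clover and 58.6, 60.2 and 62.7 TPM in Z18trunc. CPSF6 (chromosome 12, 69239569 to 69274358, plus strand), which encodes a larger CFIm subunit, was at 27.9, 23.6 and 25.4 TPM in Clover and 31.0, 27.9 and 32.9 TPM in Z18trunc. NUDT21 was clearly separate, while for CPSF6 the highest Clover and the lowest Z18trunc library nearly touched. The log2 differences were 0.26 for NUDT21 (95% interval 0.06 to 0.46, limma adjusted p = 0.107) and 0.25 for CPSF6 (95% interval 0.02 to 0.48, limma adjusted p = 0.153). CPSF7, the paralog of CPSF6 in the same complex, went from 91.6 ± 10.6 to 101 ± 0.477 TPM (SD, n = 3 each), with a log2 difference of 0.14 (limma adjusted p = 0.371).

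The CstF genes differed among themselves. CSTF3 (chromosome 11, 33084584 to 33161491, minus strand), which encodes the scaffold subunit that bridges the others, was at 33.3, 28.7 and 30.4 TPM in Clover and 38.0, 36.7 and 44.01 TPM in Z18trunc. All 3 Z18trunc libraries were above Clover, replicate 3 most, and the log2 difference was 0.35 (95% interval 0.12 to 0.58, limma adjusted p = 0.0903). CSTF1 (chromosome 20, 56392371 to 56406362, plus strand), a WD-repeat subunit, was at 45.9, 41.6 and 43.8 TPM in Clover and 48.9, 48.0 and 50.0 TPM in Z18trunc. Its groups did not overlap, but the log2 difference of 0.16 had a 95% interval that included 0 (-0.01 to 0.33, limma adjusted p = 0.192). CSTF2 (chromosome X, 100820363 to 100841520, plus strand), the subunit that binds downstream U-rich and GU-rich RNA, was at 39.2, 33.9 and 43.5 TPM in Clover and 40.1, 39.3 and 39.5 TPM in Z18trunc. The Clover libraries lay on both sides of the Z18trunc libraries, and the log2 difference was 0.03 (95% interval -0.20 to 0.27, limma adjusted p = 0.856), which became -0.06 without Clover replicate 2. CSTF2T, an intronless paralog of CSTF2, went from 9.79 ± 1.65 to 11.4 ± 0.769 TPM (SD, n = 3 each), a log2 difference of 0.21 (limma adjusted p = 0.321) that turned to -0.08 after normalization within GC bins.

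PCF11 (chromosome 11, 83157131 to 83187451, plus strand) encodes the CFIIm subunit that binds the carboxy-terminal tail of RNA polymerase II and takes part in termination. Its levels were 5.36, 4.58 and 5.74 TPM in Clover and 6.84, 7.03 and 8.71 TPM in Z18trunc. All 3 Z18trunc libraries were above Clover, and the ratio of the group means was 1.44. The log2 difference of 0.45 was the largest of the 10 (95% interval 0.18 to 0.73, limma adjusted p = 0.0835). It was 0.35 without Z18trunc replicate 3 and 0.37 without Clover replicate 2. PCF11 had the lowest read depth of the members, at 10.4 to 19.5 reads per base. On the opposite strand LOC100506282 overlaps it by 2961 bp and PCF11-AS1 by 1931 bp, at group means of 3.14 and 3.29 TPM and of 0.651 and 0.752 TPM in Clover and Z18trunc.

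The members were then compared by the base composition of their transcripts, since AT-rich and GC-rich genes differed in opposite directions across the whole table. Genes were put into 10 classes of equal number by transcript GC content. In the lowest class (29.7% to 38.7%) the median log2 difference was 0.30, and in the highest (62.6% to 87.9%) it was -0.06. Over 12820 genes with a GC value, Spearman's correlation of the difference with GC content was -0.60, a description across genes that share the same 6 libraries. Over the 10 members it was -0.50. The correlation of the difference with transcript length was 0.40 over all these genes and 0.32 over the members. The part of each property was not tested. The members are AT-richer than most, with a median GC content of 42.3% beside 50.0% for all genes.

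The order of the members followed this property in part. CPSF1 at 62.3% GC and CPSF4 at 57.4% were the 2 members with a difference below 0, and both lay within 0.04 of the median of their own GC class. CSTF2, at 47.9%, was the next in GC content and had the difference nearest 0. The 7 members without overlap and higher had GC contents from 36.9% (CPSF6) to 42.4% (PCF11). They fall in the 3 lowest GC classes. In these, 51.8%, 54.2% and 51.2% of all genes were higher at an unadjusted p under 0.05 (limma on log2(TPM + 1)). Set against the median of its GC class, the difference of PCF11 was 0.18 higher, those of CPSF2, CPSF3 and CSTF3 were 0.03 to 0.05 higher, and those of NUDT21, CPSF6, CSTF1 and CSTF2 were lower, down to -0.11 for CSTF1 and CSTF2.

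**Figure D2:**
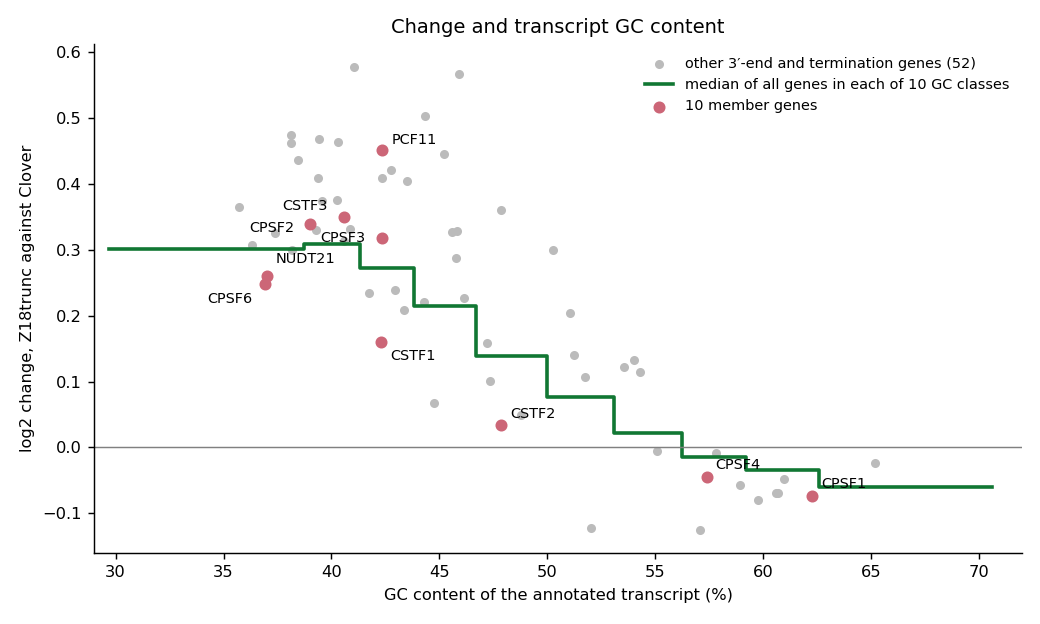
Log2 difference in TPM + 1 between Z18trunc and Clover (vertical axis) against the GC content of the annotated transcript in percent (horizontal axis) for the 10 member genes (red, labelled) and 52 other genes of 3′-end processing and termination (grey), with the median of all genes in each of 10 GC classes as a green step line whose last step runs on to 87.9%, past the axis. The step line runs from 0.30 in the lowest class to -0.06 in the highest, PCF11 stands 0.18 above it, CSTF1 and CSTF2 stand 0.11 below it, and the other members stand at -0.05 to 0.05 from it.

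The same contrast was seen library by library. As the median deviation from the mean of the 6 libraries, genes of the lowest GC class minus those of the highest stood at -0.09, -0.33 and -0.13 in Clover and at 0.13, 0.09 and 0.33 in Z18trunc. The median deviation of the 10 members was -0.02, -0.24 and -0.11 in Clover and 0.07, 0.06 and 0.20 in Z18trunc. Clover replicate 2 was lowest and Z18trunc replicate 3 highest in both measures. Without Clover replicate 2, 5 members were higher at an unadjusted p under 0.05, and without Z18trunc replicate 3, 4 were. Of all 13300 genes tested 2576 and 2370 were higher in these fits, against 3404 with every library.

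**Figure D3:**
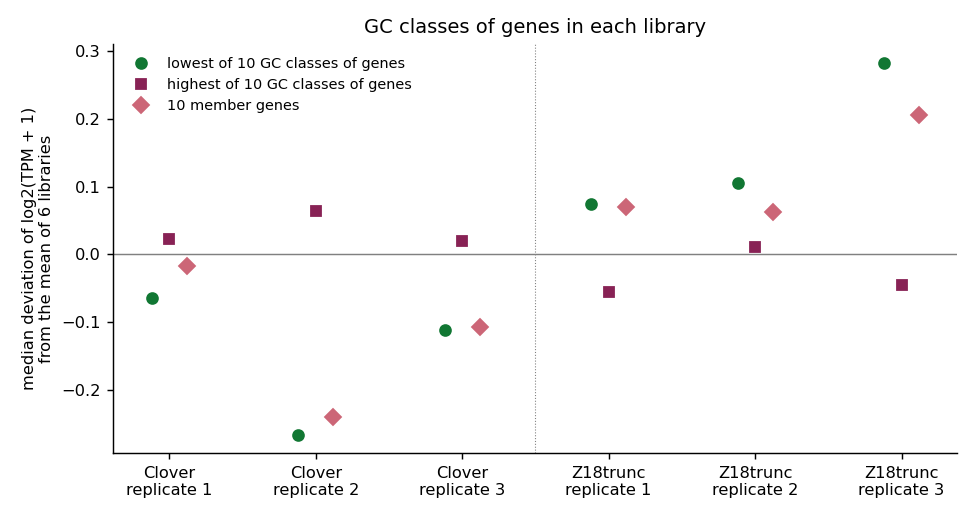
Median deviation of log2(TPM + 1) from the mean of the 6 libraries (vertical axis) in each library (horizontal axis), for the lowest of 10 GC classes of genes (green circles), the highest (purple squares) and the 10 member genes (red diamonds). The members go with the AT-rich genes, lowest in Clover replicate 2 at -0.24 and highest in Z18trunc replicate 3 at 0.20.

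When the levels were quantile normalized within 10 bins of GC content, an alternative chosen after the data were seen, the members' median log2 difference was -0.01, beside 0.00106 for all genes. In that fit 1 member, PCF11, was higher at an unadjusted p under 0.05, where 7.46% of all genes were higher and 7.43% lower, and none was called (0.0078% of all genes). PCF11 had a difference of 0.18 (95% interval 0.02 to 0.35, limma adjusted p = 0.302). The other 9 members lay between -0.13 (CSTF2) and 0.07 (CSTF3), and each of their intervals included 0. Besides CPSF1 and CPSF4, the members CPSF6, NUDT21, CSTF1 and CSTF2 then had differences below 0. For CPSF3 the interval was -0.12 to 0.20 and for NUDT21 -0.15 to 0.14, so a difference as large as 0.20 in the former could not be told from 0. Quantile normalization without regard to GC, which takes out the shift of all genes, gave a members' median of 0.14 beside -0.01, and 4 members, CPSF3, CSTF3, NUDT21 and PCF11, were higher at an unadjusted p under 0.05, against 12.8% of all genes higher and 10.9% lower, with none called (0.00752%). With FPKM in place of TPM, 5 members were higher, against 20.1% of all genes higher and 7.53% lower, with none called (0.0226%). What brings about the contrast by GC content between the libraries was not tested.

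**Figure D4:**
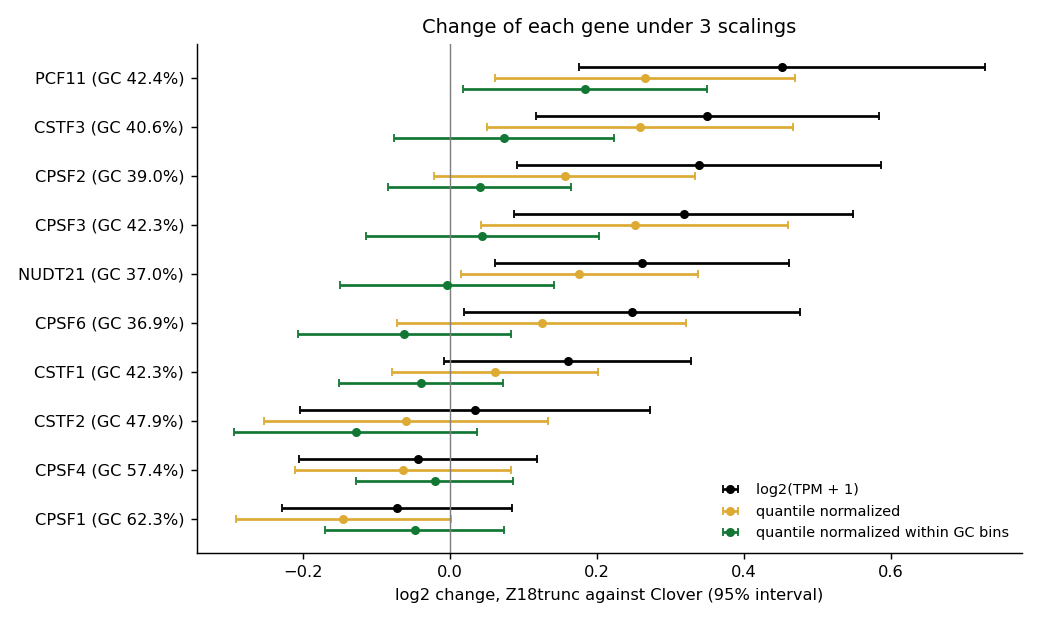
Log2 difference between Z18trunc and Clover (horizontal axis) with its 95% interval for each member gene, from log2(TPM + 1) as deposited (black), after quantile normalization (yellow) and after quantile normalization within GC bins (green). PCF11 goes from 0.45 to 0.18 with an interval above 0 in each case. CPSF1 and CPSF4 are below 0 in each case, and CPSF6, NUDT21, CSTF1 and CSTF2 are below 0 within GC bins.

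Ratios of genes within a library do not depend on a scaling factor of that library, and 6 ratios, 4 between members and 2 of a member with CLP1 or CSTF2T, were formed after the values had been seen. With 3 against 3 libraries an exact permutation test cannot give a two-sided p below 0.1. Ratios at that limit had an adjusted exact permutation p of 0.15 over the 6 ratios. CPSF6 over NUDT21, the CFIm pair with nearly the same GC content (36.9% and 37.0%), stood at 0.508 ± 0.00717 in the Clover libraries and at 0.506 ± 0.0366 in the Z18trunc libraries (SD, n = 3 each, exact permutation p = 1). CPSF2 over CPSF3 was 0.143 ± 0.00763 and 0.148 ± 0.00104 (SD, n = 3 each, exact permutation p = 0.4). The RNA proportions within both of these pairs thus overlapped between the groups.

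The other 4 ratios separated the groups, and in each the AT-richer gene was the relatively higher one in Z18trunc. GC content was 42.3% in CPSF3 and 62.3% in CPSF1, and 40.6% in CSTF3 and 47.9% in CSTF2. It was 42.4% in PCF11 and 48.8% in CLP1, and 43.4% in CSTF2T. A ratio does not take out the contrast by GC content, and the share of other gene pairs that separate was not computed. CPSF3 over CPSF1 was 0.992, 0.907 and 0.990 in Clover and 1.16, 1.23 and 1.42 in Z18trunc, higher in all 3 (exact permutation p = 0.1). CSTF2 over CSTF3 was 1.18, 1.18 and 1.43 in Clover and 1.055, 1.071 and 0.898 in Z18trunc, lower in all 3 (exact permutation p = 0.1). PCF11 over CLP1, the CFIIm pair, was 0.186, 0.204 and 0.203 in Clover and 0.211, 0.274 and 0.356 in Z18trunc (exact permutation p = 0.1), with CLP1, an RNA kinase at 48.8% GC, itself at 26.5 ± 3.53 and 27.5 ± 4.30 TPM (SD, n = 3 each). CSTF2T over CSTF2 was 0.251 ± 0.0193 and 0.287 ± 0.0162 (SD, n = 3 each, exact permutation p = 0.1).

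Beyond the members, 52 genes of 5 related lists were read from the same fit, and none of them passed at an adjusted p under 0.05. The lists were the rest of the cleavage machinery (13 genes), the Integrator complex (14) and termination factors and kinases of the polymerase tail (13). The last 2 were factors of histone gene transcription and 3′ ends (6) and cap-binding and poly(A)-binding proteins (6). At an unadjusted p under 0.05 the genes higher numbered 6, 5, 9, 2 and 4 and the genes lower 0 in each list, where 25.6% of all genes were higher and 2.9% lower. Their median log2 differences were 0.21, 0.20, 0.40, 0.27 and 0.28, beside 0.25 for the members and 0.11 for all genes. Within GC bins the medians were 0.03, 0.05, 0.12, 0.03 and 0.05, beside 0.00106 for all genes. In that fit 2, 1, 3, 1 and 0 genes were higher and 0, 2, 0, 0 and 0 lower, where 7.46% of all genes were higher and 7.43% lower, the 2 lower ones being INTS9 and INTS14. The last list holds NAB2, which in human cells is a corepressor of EGR transcription factors and no cap-binding or poly(A)-binding protein, at a log2 difference of -0.05. Without it the list has 5 genes, of which 4 were higher, and a median of 0.33, or 0.07 within GC bins.

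In the rest of the cleavage machinery RBBP6, a ubiquitin ligase that activates cleavage, went from 10.1 ± 0.898 to 14.8 ± 1.19 TPM (SD, n = 3 each), a log2 difference of 0.50 (limma adjusted p = 0.0773). PAPOLA, the canonical poly(A) polymerase, went from 58.4 ± 7.84 to 80.9 ± 7.31 TPM (SD, n = 3 each), a difference of 0.47 (limma adjusted p = 0.0840). PPP1CB, a catalytic subunit of protein phosphatase 1, had a difference of 0.36 (limma adjusted p = 0.0823). Within GC bins these 3 differences were 0.24, 0.16 and 0.14.

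Among termination genes CDK12, a kinase of the polymerase tail, went from 12.1 ± 1.90 to 18.3 ± 0.889 TPM (SD, n = 3 each), a log2 difference of 0.57 (limma adjusted p = 0.0773) that was 0.33 within GC bins. XRN2, the nuclear exonuclease that degrades the downstream RNA after cleavage, went from 79.4 ± 8.20 to 106 ± 4.52 TPM (SD, n = 3 each), a difference of 0.42 (limma adjusted p = 0.0783). CCNT1, the cyclin of CDK9, had a difference of 0.46 (limma adjusted p = 0.0805). Within GC bins the differences of XRN2 and CCNT1 were 0.18 and 0.14. When only genes with a mean of at least 5 TPM were tested, CDK12, XRN2, RBBP6 and the Integrator gene INTS8 passed, with limma adjusted p-values of 0.0486 to 0.0495, among 4.75% of all genes, while the lowest adjusted p of a member was 0.0554, for PCF11. In that fit 7 members were higher at an unadjusted p under 0.05, against 27.6% of all genes higher and 3.49% lower.

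The Integrator complex, which cuts snRNA and promoter-proximal transcripts, contains relatives of the CPSF nuclease pair. INTS11, the paralog of CPSF3, was at 165 ± 7.12 and 157 ± 2.30 TPM, and INTS9, the paralog of CPSF2, at 20.6 ± 1.70 and 18.8 ± 1.42 TPM (SD, n = 3 each). Their log2 differences of -0.07 and -0.12 had limma adjusted p-values of 0.547 and 0.425. INTS9 was further below 0 after quantile normalization, at -0.27 (limma adjusted p = 0.183), and within GC bins, at -0.25 (limma adjusted p = 0.334). INTS8, INTS7 and INTS10 had the smallest p-values of the complex, with differences of 0.44, 0.41 and 0.33 (limma adjusted p = 0.0773, 0.0851 and 0.0800), which were 0.12, 0.13 and 0.18 within GC bins.

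Among cap-binding and poly(A)-binding genes, the cap-binding pair NCBP1 and NCBP2 had log2 differences of 0.38 and 0.33 (limma adjusted p = 0.0841 and 0.0835). ZC3H14, a nuclear poly(A)-binding protein, had a difference of 0.33 (limma adjusted p = 0.0988). Within GC bins these 3 differences were 0.07, 0.02 and 0.01. Of the histone 3′-end factors, ZNF473 and LSM11, which act in the U7 snRNP pathway, had differences of 0.36 and 0.22, and CASP8AP2 one of 0.46 at only 1.43 ± 0.576 and 2.33 ± 0.636 TPM (SD, n = 3 each). Their limma adjusted p-values were 0.1002, 0.163 and 0.185, and their differences within GC bins 0.19, 0.03 and 0.21.

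**Figure D5:**
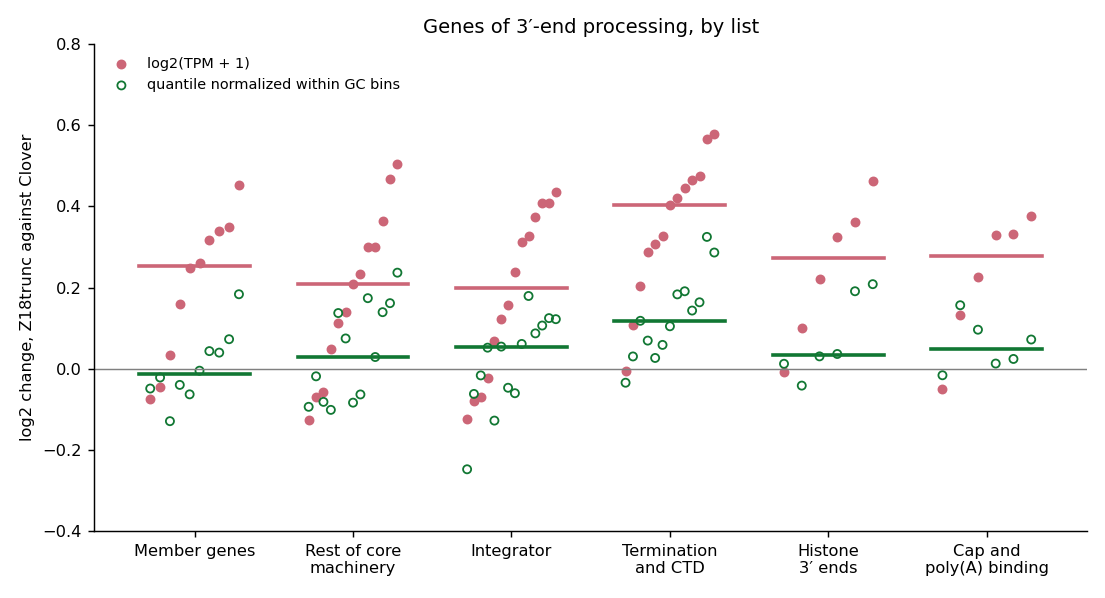
Log2 difference between Z18trunc and Clover (vertical axis) for the 10 member genes and the genes of 5 related lists, each point a gene ordered by size, from log2(TPM + 1) as deposited (filled red) and after quantile normalization within GC bins (open green), with horizontal bars for the medians. The medians are 0.20 to 0.40 as deposited and -0.01 to 0.12 within GC bins, highest for termination genes in both.

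As a readout apart from the gene tables, uniquely mapped fragments were counted over transposable element (TE) copies that lie in introns of the member genes, in the orientation of the gene. Such fragments in poly(A)-selected RNA come from retained or unfinished introns or from transcripts of the TE itself, and the counts do not separate these. Members had 12 to 119 counts over the 6 libraries, and 6 of the 10 passed the minimum of 30. CPSF1 had none in Clover replicate 1 and CPSF6 none in Clover replicate 2, where up to 3 counts remain possible. That is 0.134 and 0.157 CPM (counts scaled to the aligned fragments of the library), a limit for counting error only.

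Of the 6 tested, 1 gene, CPSF4, was higher without overlap between the groups, where 14.3% of all genes were higher and 1.44% lower without overlap. It had 11, 13 and 11 counts in Clover and 30, 20 and 16 in Z18trunc, or 0.577 ± 0.0960 and 1.07 ± 0.288 CPM (SD, n = 3 each). The Z18trunc libraries were all higher, replicate 1 most, in a gene whose own TPM overlapped between the groups. The log2 difference was 0.89 (edgeR adjusted p = 0.432). An AluJr copy in a CPSF4 intron (chr7:99454893-99455071) held 40 of the 101 counts, with 5, 2 and 3 in Clover and 16, 10 and 4 in Z18trunc. With TE copies of either orientation CPSF4 had 19, 22 and 18 counts against 36, 24 and 22, and a log2 difference of 0.45 (edgeR adjusted p = 0.575).

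In the other members the counts overlapped. CSTF3 had the most, with 26, 15 and 5 in Clover and 29, 18 and 26 in Z18trunc. NUDT21 had 2, 4 and 5 counts in Clover and 9, 12 and 4 in Z18trunc. CPSF3 had 9, 6 and 1 against 9, 7 and 18. In each of these 3 genes the spread within a group was as wide as the step between the groups. Their log2 differences were 0.66, 1.15 and 1.07 (edgeR adjusted p = 0.559, 0.559 and 0.494). With TMM scaling they were 0.38, 0.87 and 0.77. Single libraries moved them too. CSTF3 went from 0.27 without Clover replicate 3 to 1.18 without Clover replicate 1, and CPSF3 from 0.59 without Z18trunc replicate 3 to 1.57 without Clover replicate 1. NUDT21 was at 0.81 without Clover replicate 1 and at 1.46 without Clover replicate 3. Without Z18trunc replicate 1 or replicate 2 NUDT21 fell under the minimum of 30 counts and was not tested. Its entry into the test thus rested on libraries of the group in which it was higher. CPSF2 (0.75, or 0.31 without Z18trunc replicate 3) and CSTF1 (0.07) had edgeR adjusted p-values of 0.688 and 0.988. CPSF1, CPSF6, CSTF2 and PCF11 had 17, 16, 19 and 12 counts in all and were not tested.

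Across 4991 genes, neither edgeR (0%) nor DESeq2 called any at an adjusted p under 0.05. Without adjustment, at p under 0.05, 507 genes (10.2%) were higher and 20 (0.401%) lower, and DESeq2 had 41 higher. Of the members CPSF4 alone was higher at that p with edgeR, and none lower, but this depended on the scaling and the counting. With TMM scaling or DESeq2, where 123 and 41 of all genes were higher, no member was. CPSF4 then stood at 0.61 in both (edgeR unadjusted p = 0.131, DESeq2 unadjusted p = 0.203). With TE copies of either orientation NUDT21 (1.25, edgeR adjusted p = 0.247) and CSTF3 (0.72, edgeR adjusted p = 0.288) were higher at an unadjusted p under 0.05 and CPSF4 was not, where 13.9% of all genes were higher and 0.281% lower. With estimated counts it was CSTF3 (0.80, edgeR adjusted p = 0.398), where 9.44% were higher and 0.441% lower. CPSF4, at 0.70, then lay just above the threshold (edgeR unadjusted p = 0.05001). The median log2 difference over all genes was 0.28.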

How the data were processed

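Of the SW480 lines, 3 Clover and 3 Z18trunc libraries were grouped by the sample titles. The authors prepared stranded poly(A) libraries, trimmed them with cutadapt 4.6 and mapped them to hg38 (submitters' processing notes). The SQuIRE version is not given in the sources used here. The deposited gene tables, in StringTie layout, give TPM, FPKM and coverage, a signal in reads per base, without counts. The deposited TE tables give uniquely mapped counts and estimated counts in which the authors shared multiply mapped fragments.

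TPM was summed by symbol, and genes averaging at least 1 TPM entered limma 3.58.1 (R 4.3.3) as log2(TPM + 1), which understates differences of low genes, with Benjamini-Hochberg adjustment over 13300 genes. GC content came from GENCODE 44 for 96.4% of genes tested. TE copies inside the span of exactly 1 gene and outside exons (bedtools 2.31.1) were summed per gene and tested with the edgeR 4.0.16 quasi-likelihood test, with aligned fragments as library size and at least 30 counts.

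The member genes and lists were chosen with earlier results of these data known. Named were all members, their paralogs, ZC3H18 and, from each list, genes with an adjusted p under 0.05 or else the 3 with the smallest p. CLP1 was added for a ratio. Of intronic TE copies, the one with the most counts in a member could be named. Alternatives were a pseudocount of 0.1, no filter, at least 5 TPM, quantile normalization, FPKM, an intensity trend, a replicate block, leaving out each library and, for TE counts, TMM, DESeq2 1.42.0, other count minimums, rounded estimated counts and the opposite strand. After the data were seen, normalization within GC bins and TE copies of either orientation were added. The fits were tested on simulated data. Libraries of a group differed by more than counting noise in TE counts (chi-square per degree of freedom 1.90 to 2.12).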

Additional observations from a re-analysis of the deposited data

How the results depend on the processing

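No member passed at an adjusted p under 0.05 under any of 14 alternatives, and PCF11 kept a log2 difference of 0.18 to 0.52 (limma adjusted p = 0.0554 to 0.302). Members higher at an unadjusted p under 0.05 numbered 6 with TPM as deposited and 4 to 7 under the others, except 1 within GC bins, and 4 to 6 when a library was left out. Within GC bins the differences of CPSF6, NUDT21, CSTF1, CSTF2 and CSTF2T turned to -0.0625, -0.00431, -0.0393, -0.129 and -0.0830. CSTF2 was also below 0 after quantile normalization (-0.0601) and with FPKM (-0.0311), and lay from -0.0584, without Clover replicate 2, to 0.117 with a library left out. The cause of these turns was not tested.

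Over all genes limma called 2, against 1 with a pseudocount of 0.1, 1 without a filter, 1 after quantile normalization, 1 within GC bins, 60 with an intensity trend and 474 with at least 5 TPM, and 1 to 4 with a library left out (4 without Clover replicate 2, 1 without Z18trunc replicate 1). Without adjustment, at p under 0.05, the genes higher and lower went from 3404 and 386 to 2674 and 1001 with FPKM, 1708 and 1448 after quantile normalization and 957 and 953 within GC bins. With a library left out 2370 to 3466 genes were higher and 281 to 398 lower. ZC3H18 was called throughout, at 3.63 to 3.78.

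Intronic TE counts gave 0 calls, 3 on the opposite strand, 11 with TE copies of either orientation and 0 to 3 with a library left out (3 without Z18trunc replicate 1, 1 without Z18trunc replicate 2). TMM scaling and DESeq2 took genes higher at an unadjusted p under 0.05 from 507 to 123 and 41, leaving out Z18trunc replicate 3 to 287, and turned the CSTF1 intronic difference to -0.24 and -0.25.

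Libraries with the same replicate number did not deviate together (correlations -0.0355, 0.0172 and -0.0372). With a replicate block limma called 1 gene and edgeR called 0 genes. In that limma fit 6 members were higher at an unadjusted p under 0.05, against 3193 of all 13300 genes tested. Depth in intronic TE copies, at most 119 counts a member, limits what those values can show.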
